A study of Caenorhabditis elegans with 2 samples.

Results

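The genes described here encode the nuclear pore complex and the nuclear transport machinery of the nematode Caenorhabditis elegans. They were chosen by name from the WBcel235 Ensembl annotation: all protein-coding genes whose symbol starts with npp-, imb-, ima-, ran- or xpo-. That gave 40 genes of 19973, comprising 26 npp genes and 14 genes for carriers and the Ran system. The set was selected on LIN-35 peaks known from these same data, so the values below are descriptions and no test was made on them. LIN-35, the only Rb-family pocket protein of the worm, was mapped by chromatin immunoprecipitation with sequencing (ChIP-seq) in 1 group of 2 biological replicates. The animals were whole L1 larvae of mixed sex from strain YL409. Its genotype is unc-119(ed3)III with the transgene vrIs60, which places a LIN-35 fusion with GFP and FLAG tags under the lin-35 promoter and carries a working unc-119. The labels list no lin-35 mutation, so an untagged copy may be present, and they name lin-35 as the antibody target without saying which epitope was bound. Whole animals were used, so the cell types in which a gene carried LIN-35 cannot be told apart.

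The nuclear pore complex is a ring-shaped channel through the nuclear envelope. Its scaffold is built of an outer and an inner ring, which hold a central channel of disordered phenylalanine-glycine repeat proteins, a ring of membrane proteins, filaments on the cytoplasmic face and a basket on the nuclear face. Importins and exportins carry cargo through that channel, and the small GTPase Ran, loaded with GTP in the nucleus, sets the direction of transport. In dividing cells of the worm the pore and envelope are taken apart and rebuilt at mitosis, and Ran also acts in spindle assembly. LIN-35 is a subunit of the DREAM complex, which represses cell cycle genes and contacts DNA through an E2F-DP pair and through LIN-54. The latter recognises the CHR, the cell cycle genes homology region.

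Letters of both kinds of site were found at member peaks, and the following stretches show where. Each runs for 30 bases, 5′ to 3′ along the gene, from the RefSeq genome sequence of WBcel235, and capitals mark the match. E2F spellings searched were TTCCCGC or TTCGCGC or TTGCCGC or TTGGCGC, and CHR spellings were TTTGAA or TTCGAA, all on both strands, with each of several overlapping matches counted. A match is a description of letters and not evidence of a used site. The first 4 are examples of an E2F match within 50 bp of the summit, the point of highest signal of a peak. These matches were centred 15, 0, 25 and 39 bp from it. The npp-5 stretch was chosen for a CHR match on the summit itself, and the last 3 for a CHR and an E2F match close together. Not all members were open to this choice, so closer matches at other members are not printed.
npp-3: ctcgcagcgaacGCGCGAAaaatacacagc
npp-15: tgctaagaaacGCGCCAAcactgggtgctt
npp-23: aaaaattaaataTTCCCGCcgataacgcca
npp-20: aatccacgttccTTGGCGCacgagaaacac
npp-5: aaacccctctttTTTGAAagtccgcgcatt
npp-22: gatgTTTGAAaaattaactTTCCCGCcgtt
npp-9: tttTTCGAAatttgcgaagcTTGGCGCcca
ran-1: attTTCGAAttttgttcattTTGGCGCgca

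In ce11 these stretches lie at chrII:11874867-11874896 (npp-3), chrIII:7928719-7928748 (npp-15), chrIV:8869843-8869872 (npp-23), chrIV:1496150-1496179 (npp-20) and chrII:11599954-11599983 (npp-5). Those with a pair of matches lie at chrV:11733701-11733730 (npp-22), chrIII:3404580-3404609 (npp-9) and chrIII:10748139-10748168 (ran-1). The npp-15 stretch is on the plus strand and the others are on the minus strand. In npp-3 and npp-15 the E2F spelling reads on the strand opposite to the gene. The stretches of npp-9 and ran-1 carry the same arrangement, TTCGAA followed after 11 bases by TTGGCGC.

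LIN-35 peaks stood upstream of most nuclear pore and transport genes. A peak of the irreproducible discovery rate (IDR) list, the authors' set of 3838 reproducible peaks, had its summit within 500 bp of the annotated 5′ end of 31 of the 40 genes (77.5%). Over all protein-coding genes the same held for 13.6%, or 2722 of 19973. Since that contrast was known when the genes were picked, nothing is read from it beyond the count. Peaks were found at 20 of 26 npp genes and at 11 of 14 carrier and Ran genes. Each of the 31 genes had 1 IDR peak in its window, and no member shared a peak with another member. The peaks ranged in the authors' signal from 73.8 at ima-3 to 1584 at npp-3, with a median of 238. In rank, where 1 is the strongest IDR peak, they ran from 38 to 3083 with a median of 976, beside a median of 1305 over all 2722 genes with such a peak. Of the 31, 4 ranked within the strongest 100 peaks (12.9%, against 4.26% of all genes with a peak) and 7 within the strongest 384 (22.6% against 17.1%).

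**Figure D1:**
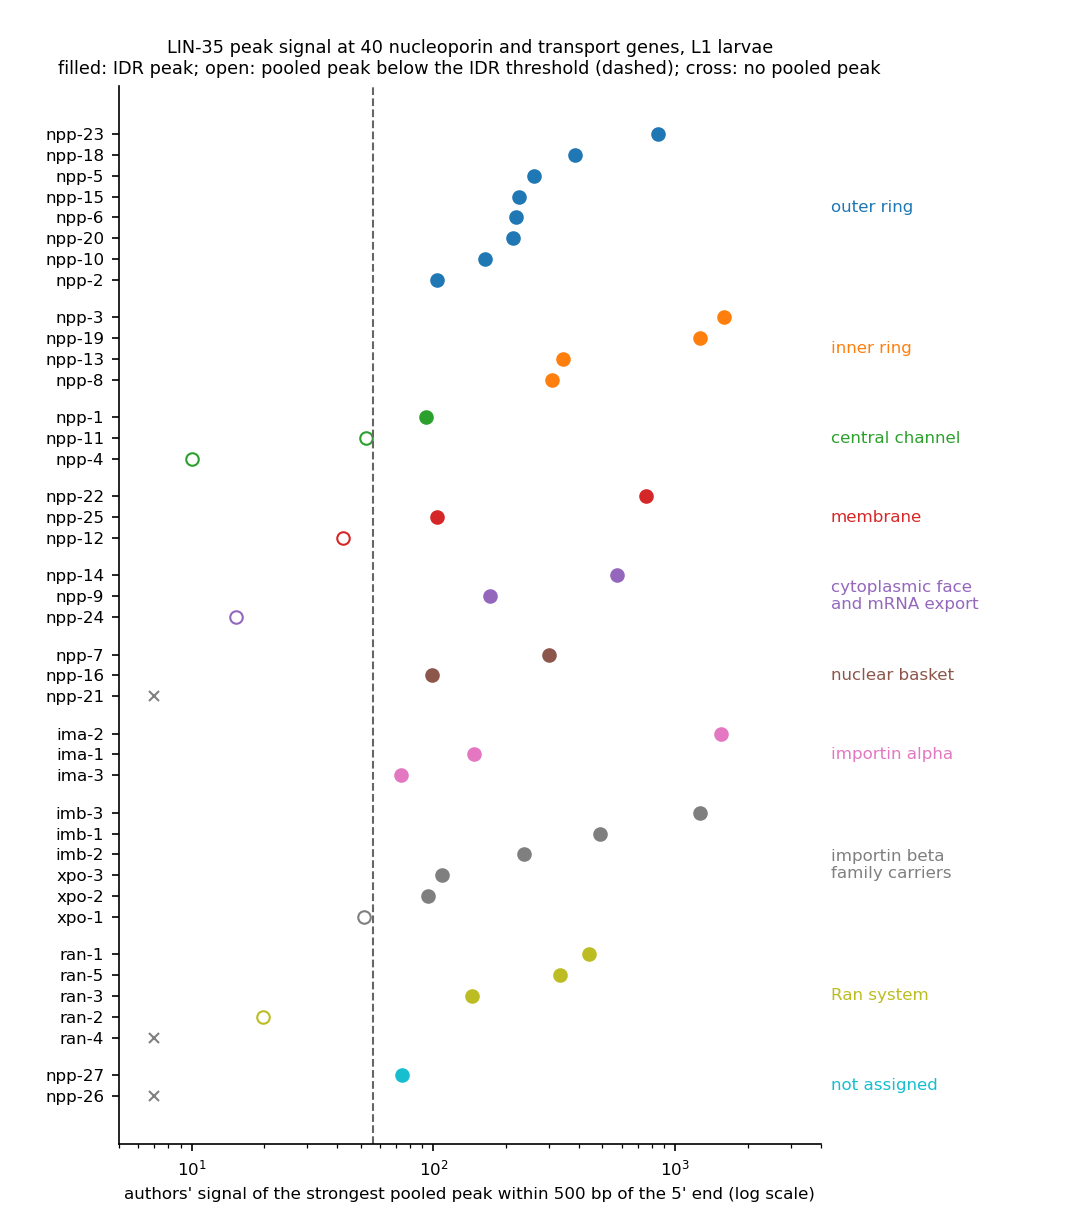
Signal (log scale) of the strongest pooled peak within 500 bp of the 5′ end of each of the 40 genes, grouped by role. Filled points are IDR peaks, open points are pooled entries under the IDR threshold (dashed line at 56.0), and crosses mark 3 genes with no pooled entry in the window. The pooled list also holds background, so an open point need not be a peak. All 12 ring genes lie to the right of the line.

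With the 500 bp window, the 2 rings of the scaffold had a peak at every gene. All 8 outer ring genes and all 4 inner ring genes had an IDR peak, 12 of 12, beside 8 of the other 14 npp genes and the 13.6% over all genes. Within 250 bp the ring count was 8 of 12, without npp-2, npp-6, npp-10 and npp-15, beside 5 of the other 14 npp genes (background 9.1%). With a peak assigned to the closest start alone it was 9 of 12, without npp-6, npp-10 and npp-15, beside 5 of 14 (background 10.6%). With the strongest peaks of either replicate alone it was 12 of 12 beside 9 of 14 (background 13.1% and 13.6%). Within 1000 bp it was 12 of 12 beside 10 of 14 (background 17.2%). The inner ring held the strongest member peak, and its 4 peaks ranked 38, 84, 626 and 715. Names of homologues given beside npp genes are the vertebrate ones. The strongest peak lay at npp-3, the homologue of vertebrate Nup205, with a pooled signal of 1584, a replicate 1 signal of 408 (rank 69) and a replicate 2 signal of 1175 (rank 32). Its peak (chromosome II, 11874699 to 11875038, ce11) had its summit 78 bp upstream of npp-3, the shortest distance of all members. At npp-19, the homologue of Nup35, the pooled signal was 1271, with 390 in replicate 1 (rank 80) and 886 in replicate 2 (rank 86). Its summit lay 194 bp upstream (chromosome II, 10798526 to 10798844) with no other protein-coding start in reach. Signal scales differ between the lists, so ranks and not signals are to be set side by side across replicates. The peak of npp-13, the homologue of Nup93, had a pooled signal of 343 and ranked 751 and 630 in the replicates. That of npp-8, the homologue of Nup155, had 308 and ranked 494 and 994.

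Peaks of the outer ring, the Y-shaped complex that seeds pore assembly, were mostly of middle rank, from 199 to 2329 in the IDR list. The strongest lay at npp-23, the homologue of Nup43, with a pooled signal of 847 and replicate ranks of 207 and 190. Its summit lay 153 bp upstream (chromosome IV, 8869693 to 8869978). Next came npp-18, the homologue of Seh1 (signal 385), and npp-5, the homologue of Nup107 (signal 260), both with a summit 158 bp upstream. Signals of 226, 220 and 214 were found at npp-15, npp-6 and npp-20, the homologues of Nup133, Nup160 and Sec13. The weakest were npp-10, which encodes the precursor of Nup98 and Nup96 (signal 164), and npp-2, the homologue of Nup85 (signal 103). In replicates 1 and 2 the peak of npp-2 ranked 3266 and 2020, and its summit stood 400 bp away.

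The remaining parts of the pore had peaks at some genes and not at others. Among the phenylalanine-glycine proteins of the central channel, npp-1 (Nup54) had a weak IDR peak of signal 92.9, rank 2560. Its partners npp-11 (Nup62) and npp-4 (Nup58) had none. In the membrane group, npp-22 (Ndc1) had a strong peak of signal 759, ranked 221 and 230 in the replicates, and npp-25 (TMEM33) a weak one of 103. Under the npp-22 peak lies the 3′ UTR of spe-42, a gene on the same strand that ends 67 bp before npp-22 begins. No IDR peak was found at npp-12, the homologue of gp210. On the cytoplasmic face, npp-14 (Nup214) had a signal of 577 and ranked 356 and 353, and npp-9 (Nup358) had 171. Nup88, encoded by npp-24, had none. In the nuclear basket, npp-7 (Nup153) had a signal of 301, npp-16 (Nup50) had 98.7, and npp-21 (Tpr) had no IDR peak. The gene npp-27 had a weak peak of 74.2 and npp-26 none. The worm Rae1 gene is named rae-1 in this annotation and was therefore not a member. Looked up after the members' values were seen, it had an IDR peak of signal 185, rank 1281, with its summit 110 bp upstream.

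Importin alpha genes differed widely in signal. These adaptors bind the import signal of the cargo, and in the worm ima-1 and ima-2 are known from the germline while ima-3 is also used in the soma. At ima-2 the pooled signal was 1541 (rank 43), with 336 in replicate 1 (rank 113) and 1201 in replicate 2 (rank 30). The ima-1 peak had a pooled signal of 147 and ranked 1603 and 1732. The ima-3 peak had 73.8, the lowest of all members with an IDR peak, and ranked 2797 and 2688. The order ima-2, ima-1, ima-3 was thus the same in both replicates.

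Carriers of the importin beta family showed a similar spread. The strongest was imb-3, the homologue of importin 5, with a pooled signal of 1264 and replicate ranks of 91 and 84. It was followed by imb-1, importin beta itself, with 489 and ranks of 445 and 407. The transportin gene imb-2 had 238 and ranked 1455 and 829. The exportins were weaker. At xpo-2, which returns importin alpha to the cytoplasm, the signal was 94.9. At xpo-3, the tRNA exportin, it was 109, and at xpo-1, the exporter of proteins with a leucine-rich signal, no IDR peak was found. All 3 importin beta genes thus ranked above the exportins in the pooled list.

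Of the 5 ran genes, 3 had a peak within 500 bp, beside the 13.6% over all genes. All 3 peaks were shared with a divergent gene whose start was nearer the summit. No ran gene kept a peak within 250 bp (background 9.1%) or with the closest start alone (background 10.6%). The GTPase gene ran-1 had a pooled signal of 442, 125 in replicate 1 (rank 487) and 321 in replicate 2 (rank 464). The ran-5 peak had 334 and ranked 659 and 649. The peak of ran-3, the RCC1 homologue that loads Ran with GTP, had 144 and ranked 1152 and 2182. No IDR peak lay within 500 bp of ran-2, the GTPase activator, or of ran-4, the homologue of NTF2 that imports Ran.

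**Figure D2:**
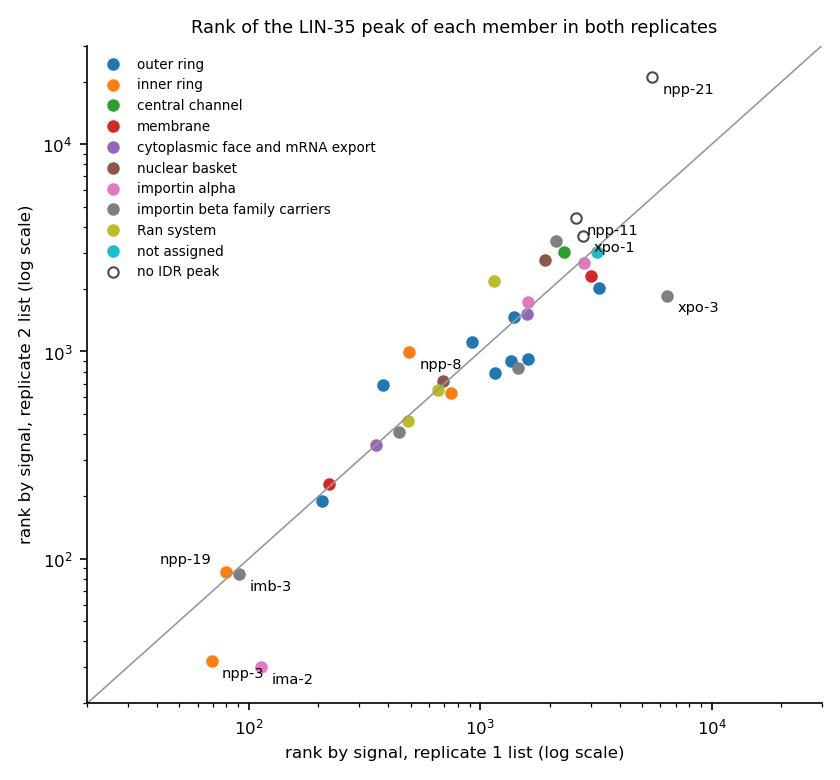
Rank by signal of the strongest peak within 500 bp of each member's 5′ end in the replicate 1 list (x axis) and the replicate 2 list (y axis), both on log scales, with the line of equal rank. Filled points are members with an IDR peak, coloured by role, and open points are those without one that had an entry in both replicate lists. Most points follow the line, and xpo-3 lies farthest to the right among filled points.

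All 31 genes had an entry within 500 bp in both replicate lists, and the ranks were mostly alike. As these long lists also hold background, presence in both says little by itself. At 30 of the 31 genes the entry was among the 3838 strongest in both lists. Ranks in the replicates differed by less than 1.5 times for 20 of the 31, with a median ratio of 1.21. Over the 31 genes the ranks correlated with a Spearman rho of 0.912, and over 2669 genes with an IDR peak and a peak in each replicate with 0.880. These are descriptions: the IDR list was itself built from peaks that rank alike in the replicates. Replicate summits lay within 50 bp of each other at 28 of 31 genes, with a median of 13 bp. The exceptions were npp-1, ran-3 and npp-25, whose summits lay up to 107 bp apart. The ratio of ranks was largest at ima-2, 3.77 times, between ranks 113 and 30. At xpo-3 the ranks were 6399 in replicate 1 and 1856 in replicate 2, so this peak rested mainly on replicate 2. With the 3838 strongest peaks of replicate 1 alone, 32 of 40 members had a peak (background 13.1%), xpo-3 being lost and npp-11 and xpo-1 gained. With those of replicate 2 alone, 33 did (background 13.6%), npp-12 and xpo-1 being gained.

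The summits lay upstream at all 31 genes, from 78 to 483 bp, with a median of 257 bp. Over all genes with an IDR peak 91.7% had the summit upstream, and among these the median was 185 bp. Beyond 250 bp lay 16 of the 31 member summits (51.6%), against 33.8% of all genes with a peak. Between protein-coding genes lay 28 of them. The other 3 were in the 3′ UTR of spe-42 (npp-22), in an intron of spd-5 (npp-6) and in a coding exon of R12C12.6 (ran-5). With a window of 250 bp, 15 members kept a peak (37.5%, background 9.1%).

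**Figure D3:**
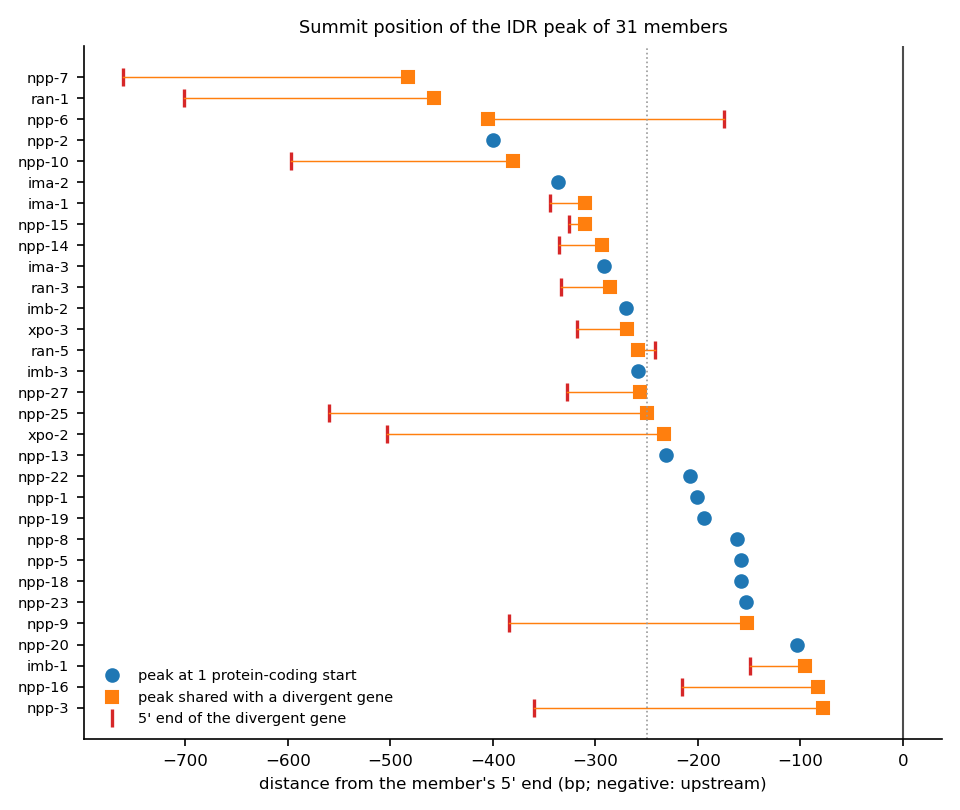
Summit position of the 31 IDR peaks relative to the member's 5′ end, in bp, with upstream to the left. Circles are peaks near 1 protein-coding start, squares are peaks shared with a divergent gene whose 5′ end is the red bar, and the dotted line marks 250 bp. The summits run from 78 bp (npp-3) to 483 bp (npp-7) upstream.

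At 17 of the 31 genes (54.8%, against 45% of all genes with a peak) the peak also lay within 500 bp of another protein-coding start. All 17 partners were transcribed away from the member on the other strand. The summit was nearer to the member at 5 of these pairs and nearer to the partner at 12. Among the 5 was npp-3, whose partner top-2, topoisomerase II, starts 282 bp from the summit. The others were npp-9 with F59A2.5, npp-16 with ndab-1, npp-25 with mrps-10 and xpo-2 with nol-14. Among the 12 were npp-14 with cel-1, the mRNA capping enzyme, whose start was 42 bp from the summit against 294 bp for npp-14. At ran-1 the partner dkc-1, the dyskerin of box H/ACA particles, was 243 bp away against 458 bp. At npp-6 the summit lay 230 bp inside spd-5, the centrosome scaffold, and 405 bp upstream of npp-6. At npp-7 the partner was unc-40, the netrin receptor, 278 bp away against 483 bp. At ima-1 it was dvc-1, a protease of DNA-protein crosslinks, 34 bp away against 310 bp. The remaining pairs were npp-10 with cyk-3, npp-15 with C29E4.13, npp-27 with ntl-4, imb-1 with mfsd-13.1, ran-3 with C26D10.3, ran-5 with R12C12.6 and xpo-3 with C49H3.3. Which gene of a pair such a peak acts on cannot be told from its position. When a peak was assigned to the closest start alone, 19 of 40 members had one (47.5%, background 10.6%). Peaks at no other protein-coding start were found at 14 members, including npp-19, ima-2, imb-3, npp-23 and npp-22, all within the strongest 384.

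Several of the 9 members without an IDR peak fell short by a small margin in signal or distance. The lowest signal in the IDR list was 56.0, and the members just inside it were ima-3 at 73.8 and npp-27 at 74.2. Just outside were npp-11, with a pooled peak of 52.4 (rank 4039) lying 164 bp upstream, and xpo-1, with 51.4 (rank 4103) lying 407 bp upstream. Next came npp-12 with 42.3 (rank 4796). The other pooled peaks were far weaker, with signals of 19.7 at ran-2, 15.2 at npp-24 and 10 at npp-4, all downstream of the start. In replicate 1 npp-11 ranked 2592 and in replicate 2 it ranked 4390. Among the 7676 strongest pooled peaks, a number 2 times that of the IDR list, 34 of 40 members had one (85%, background 18.6%), the additions being npp-11, npp-12 and xpo-1.

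At ran-4 an IDR peak of signal 154 lay 513 bp upstream, just beyond the window, and ran-4 had the nearest start to it. The peak nearest to npp-21 lay 540 bp upstream with a signal of 63.9, closer to the start of the divergent pgam-5. Within 1000 bp, 35 of 40 members had an IDR peak (87.5%, background 17.2%), the additions being npp-12, npp-21, ran-4 and xpo-1. The peak added at npp-12 lay 663 bp from it and 176 bp from the start of T23H2.3. That added at xpo-1 lay 850 bp from it and 6 bp from the start of uvs-1. With the 5′ end of any transcript, 31 did (background 14.4%), and with the 1919 stronger IDR peaks, 23 did (57.5%, background 8.86%). A further member, ran-2, starts 479 bp after npp-15 on the same strand, with no protein-coding gene between them. Such a downstream gene can be transcribed in one operon with the gene before it. The IDR peak nearest to ran-2 lay 4802 bp upstream and was the peak of npp-15. Without candidate downstream operon genes, those starting within 500 bp after another gene on their strand, 28 of 35 members had a peak (80%, background 14.6%). Of the 5 members left out, 3 had an IDR peak (npp-1, npp-22 and npp-23), while npp-26 and ran-2 had none. Over all such candidate genes 9.28% had one. The genes npp-4, npp-11, npp-24, npp-26 and ran-2 had none within 1000 bp.

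On the chromosomes the 40 genes were unevenly placed. Chromosome I held 13 of them (32.5%) and 14.4% of protein-coding genes. The printed stretches were taken from members on other chromosomes only. Chromosomes II, III and IV held 8 members each (20%), beside 17.3%, 13.2% and 16.4% of genes. Chromosome V held 3 members (7.5%) and 25% of genes, and X held no member and 13.7% of genes. Peaks were found at 9 of 13 members on chromosome I, where 21% of all genes had one. On II they were found at 6 of 8 (12.9% of all genes there), on III at 7 of 8 (22%), on IV at 7 of 8 (13%) and on V at 2 of 3 (8.65%). On X 8.53% of all genes had one, so the chromosomes with most members relative to their genes, I and III, were also those with the highest share of genes with a peak. Away from the 5′ ends, 1 further IDR peak lay inside a member, in an intron of npp-27, 606 bp from the start and with a signal of 58.2. None lay inside the other 39 genes beyond 500 bp from the start.

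E2F spellings stood within 50 bp of the summit at 9 of the 31 member peaks (29%). The same held for 13% of all 3838 IDR peaks, for 15.9% of the 2136 that lie within 500 bp of a protein-coding start, and for 4.05% of pooled peaks under the IDR threshold. The 9 were ima-2, imb-3, npp-3, npp-9, npp-15, npp-20, npp-22, npp-23 and ran-1. All 9 were among the 1919 stronger IDR peaks, where they made up 9 of 23 member peaks (39.1%). No share was taken over other peaks of like strength, so the shares above also differ in peak strength. The most frequent spelling was TTGGCGC, at 6 of 31 member peaks (19.4%) and 4.69% of all IDR peaks, and TTGCCGC was at none. At npp-15 the match was centred on the summit, as printed above, and at npp-3 it was centred 15 bp away. The ima-2 peak held 4 matches, the nearest centred 6 bp from the summit, and the imb-3 match was centred 14 bp away. Neither gene is among those with a printed stretch. CHR spellings stood at 18 of 31 member peaks (58.1%), against 24.6% of all IDR peaks and 30.7% of those at starts. Under the IDR threshold pooled entries, which include background, held them at 25.2%, so these short letters were no rarer there than over all IDR peaks. Of the 21 CHR matches, 16 lay on the side of the summit towards the member's start (76.2%), against 445 of 992 (44.9%) over all 2722 genes with an IDR peak. For E2F matches that side held 5 of 13 (38.5%) at members and 47.7% over all such genes. Over all genes, matches were counted per gene, so those at a peak shared by a divergent pair counted once for each side. As 45% of these genes shared a peak, the shares over all genes are drawn towards equal sides and are not a like comparison. The npp-5 stretch printed above holds a match centred 1.5 bp from the summit.

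**Figure D4:**
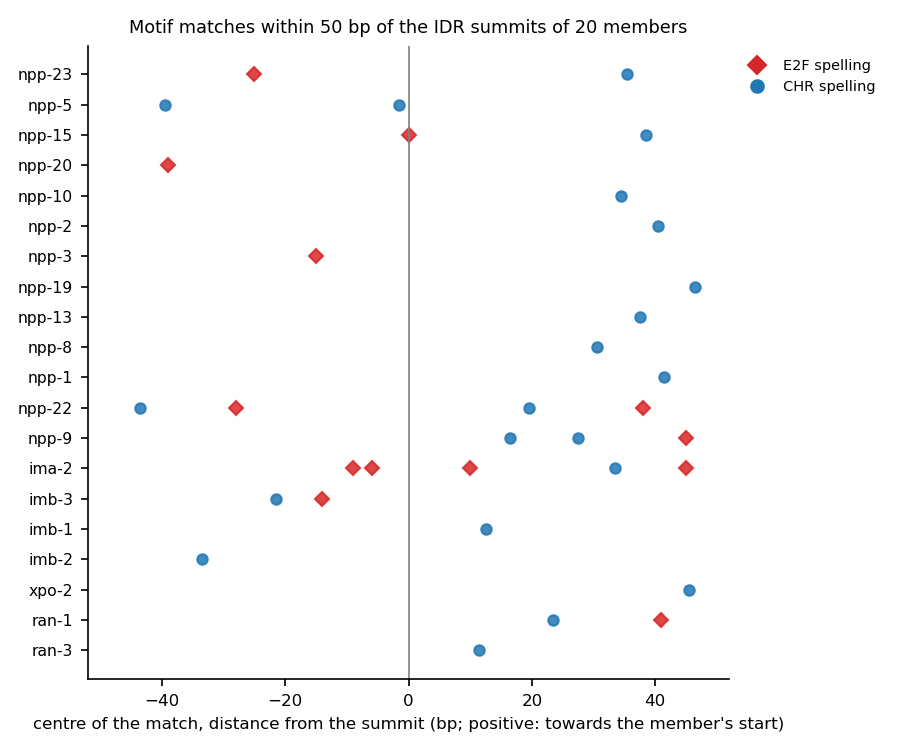
Centres of E2F matches (diamonds) and CHR matches (circles) relative to the IDR summit, in bp, with positive values towards the member's 5′ end, for the 20 members that had either. Matches had to lie wholly within 50 bp of the summit. E2F matches lie on both sides and 16 of 21 CHR matches lie to the right. Over all genes with an IDR peak that share was 44.9%, with a shared peak counted once for each gene.

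Both kinds of match were present at 7 member peaks (22.6%, against 5.91% of all IDR peaks), and neither at 11 (35.5% against 68.3%). The 7 were ima-2, imb-3, npp-9, npp-15, npp-22, npp-23 and ran-1. Read along the E2F spelling, the closest CHR ahead of it on the same strand came with 1 base between them at imb-3, with 9 at npp-22, with 11 at npp-9 and ran-1, and with 33 at ima-2. Over all IDR peaks that order was most frequent with 0 bases between (26 peaks), 1 base (26) and 9 bases (17), and no other spacing was found at more than 5. A spacing of 11 was found at 3 IDR peaks in all, of which npp-9 and ran-1 are 2. In the fixed window from 250 bases before to 50 after the 5′ end, an E2F spelling occurred at 10 of 40 members (25%), 9.2% of all protein-coding genes and 18.4% of genes with an IDR peak. Among the 9 members without an IDR peak it occurred at npp-11 alone. CHR spellings occurred in that window at 34 of 40 members (85%), 68.9% of all protein-coding genes and 70.1% of genes with an IDR peak. They occurred at all 9 members without an IDR peak and at 25 of the 31 with one (80.6%), a share no higher at members with a peak than at those without. The fixed window does not reach 16 of the 31 member summits, which lie beyond 250 bp upstream. It therefore describes the region before the start and not the peaks.

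Genes that work beside the pore were also looked up, in 3 lists. Of 14 genes listed under nuclear envelope and lamina, 7 had an IDR peak within 500 bp (50%), beside the 13.6% over all genes. Where the product of each listed gene is found in the cell was not examined. The strongest were lem-3 (signal 612), lem-2, a LEM-domain protein of the inner membrane (signal 430), and baf-1, which links chromatin to that membrane (signal 215). The pore seeding factor mel-28 had 143, and the lamin gene lmn-1 had no IDR peak. Of 12 mRNA export genes, 6 had one (50%), led by thoc-5 of the THO complex (signal 1333), the helicase hel-1 (signal 699) and the adaptor aly-2 (signal 258, shared with rpb-12). Of 9 genes of the SUMO system, which modifies RanGAP in vertebrates, 4 had one (44.4%), led by smo-1, SUMO itself (signal 370), the conjugating enzyme ubc-9 (signal 251) and uba-2 (signal 149, shared with vps-25).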

How the data were processed

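Members and lists were chosen with earlier results of these data known. Per the labels, ChIP-seq was done on 2 biological replicates with DNA fragments of 150 to 350 bp. Per the deposited file manifest, the authors called peaks on each replicate and on both together, each time with a further input file common to all lists, and derived the IDR list from these. The sources used here do not give the aligner, the peak caller or the IDR threshold. The deposited signal of each peak is the authors' value and was used to rank and describe peaks within a list. The deposited −log10 q-value was 3.92 for every IDR peak and ranked none. The IDR list equals the 3838 strongest of 30000 pooled peaks. Replicate lists held 23835 and 30000 nuclear peaks. The pooled and replicate lists are labelled as peaks and background, so an entry in them need not be a peak. Read depth is unknown, so no interval is given.

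Positions are ce11, counted from 1, the same assembly as WBcel235; all peaks lay within its chromosomes. Genes came from Ensembl release 115, and the 5′ end is that of the gene record. The ce10 lists were not used. All members are named, with genes that share a member peak and up to 3 genes with a peak per list, plus further genes named after their values were seen. The symbol npp-17 matched no gene name. Peak assignment and motif search (Python 3.11.15, pandas 2.3.3) were checked on planted peaks and motifs. Alternatives were other windows, starts and peak lists. More pooled peaks, removal of operon genes, rae-1, motif spacing, motif side, ring counts by setting and shares by chromosome were added after seeing the data. The labels name a possible control experiment, not analysed here.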

Additional observations from a re-analysis of the deposited data

How the results depend on the processing

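The count of members with an IDR peak, 31, stayed within 1.5 times under 7 of 9 alternatives. It fell to 15 within 250 bp and to 19 with a peak assigned to the closest start alone, where 16 and 12 members were lost. Using 1 replicate's strongest peaks in place of the IDR list gave 32 to 33 members, median ranks of 917 to 1157, and 14 to 16 of the 35 neighbouring-pathway genes, for which the IDR list gave 17. The members' median rank of 976 moved to 715 within 250 bp and to 658 among the stronger 1919 peaks, where ranks end at 1919. Pathway genes with a peak fell from 17 of 35 (48.6%, background 13.6%) to 8 within 250 bp (background 9.1%). Among the stronger peaks there were 11 (background 8.86%). Without candidate downstream operon genes there were 10, but only 21 of the listed genes were left to count (background 14.6%). Member peaks with an E2F match rose from 9 to 15 with 100 bp either side of the summit (48.4%, against 18.3% of all IDR peaks) and fell to 5 of 15 within 250 bp of the start. Those with a CHR match fell from 18 to 10 of 15 within 250 bp. Those falls follow from fewer peaks being counted. Leaving out operon genes and taking more pooled peaks were chosen after seeing the data. No paired analysis was possible because there was 1 group. Unknown read depth limits what can be said of genes without a peak.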
